A study of Mus musculus with 6 samples.

Results

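The circadian clock genes Clock, Arntl, Per1, Per2, Per3, Cry1, Cry2, Nr1d1, Nr1d2 and Dbp were examined in mouse embryonic stem cells with and without Sirt1. They were chosen by name, as rows of the probe-set table whose annotated symbol is exactly one of these, which gave 10 of 18193 genes and 23 of 45037 probe sets. Arntl encodes the protein also called BMAL1. RNA came from cultured R1 cells, a line from (129X1 x 129S1)F1 embryos, and was measured on Affymetrix 3' expression arrays, 1 per sample. The knockout group, Sirt1-/-, had 3 arrays and the wild-type group, Sirt1+/+, had 3. Dishes for both were coated with gelatin, and the serum-containing medium held leukaemia inhibitory factor (LIF), the cytokine that keeps these cells undifferentiated. The labels name 1 source per genotype, so Sirt1 loss and any other difference between the sources cannot be told apart, and they do not say whether samples of a genotype were separate cultures. The p-values therefore measure a spread that may be technical. The sources used here do not give the time of harvest.

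The clock is a set of transcriptional feedback loops. CLOCK and BMAL1 bind E-boxes and switch on the Per and Cry genes, whose proteins return to repress CLOCK and BMAL1. They also switch on Nr1d1 and Nr1d2, which encode the REV-ERB repressors of Arntl, and Dbp, which acts through D-boxes. SIRT1 is an NAD-dependent deacetylase that is known to bind CLOCK and BMAL1 and to deacetylate BMAL1 and PER2. Undifferentiated mouse embryonic stem cells are known to express clock genes without circadian rhythm, which appears on differentiation.

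Of the 10 clock genes, 4 rose in the knockout, 1 fell and 5 did not pass (limma, Benjamini-Hochberg adjusted p under 0.05 over all 18193 genes, each read on its probe set with the highest mean). Among all genes 30.0% passed, 12.5% higher and 17.5% lower in the knockout. With 10 genes, 5 passing is a description and not a result about the group. The genes that rose were Clock, Cry1, Nr1d1 and Nr1d2, by 0.28 to 0.38 on the log2 scale, and the one that fell was Per3, by 0.95. The median log2 change of the 10 genes was 0.19, against -0.01 over all genes, and their median absolute change was 0.27, against 0.14. The knockout and wild-type values did not overlap for Clock, Arntl, Per3, Cry1, Nr1d1 and Nr1d2, and 43.8% of all genes showed no overlap. Over the 23 probe sets of these genes 5 rose and 1 fell, against 9.46% higher and 10.3% lower among all probe sets, 19.8% in all.

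**Figure D1:**
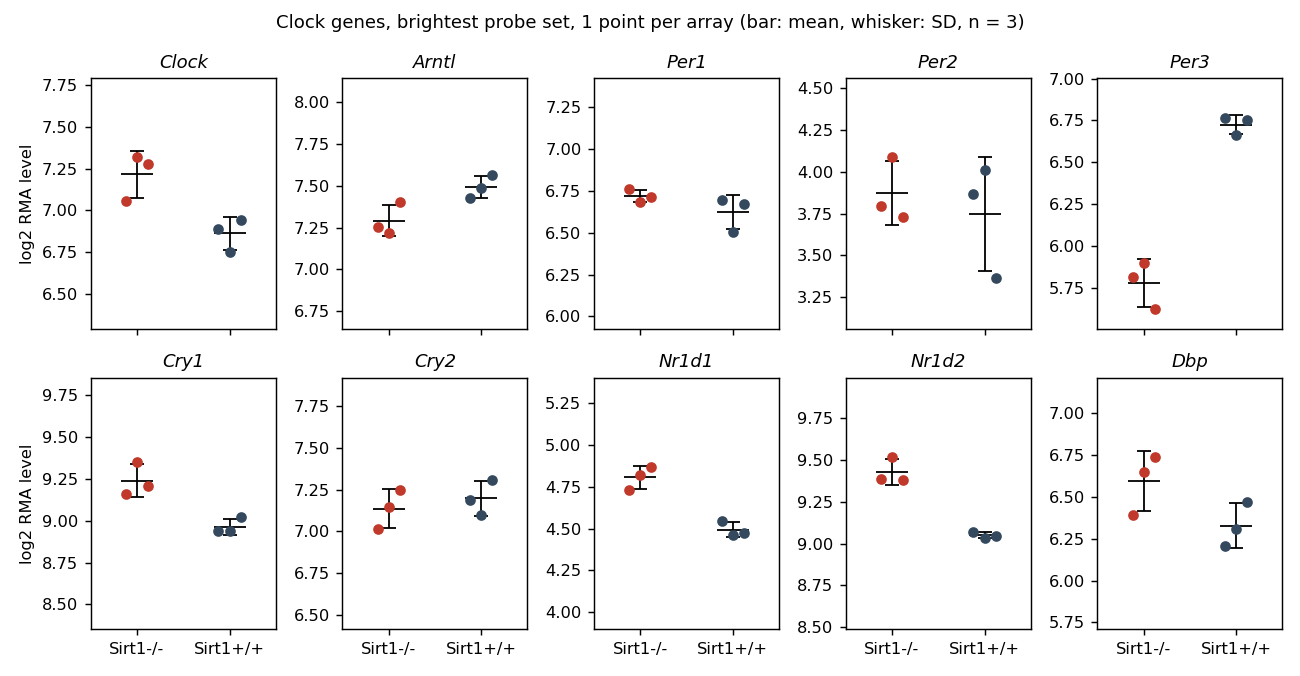
Log2 RMA level of each clock gene (y axis, every panel spanning the same log2 range) in the 3 Sirt1-/- and the 3 Sirt1+/+ arrays, read on the brightest probe set, with the mean and SD. Per3 is the gene whose knockout arrays lie farthest below the wild-type arrays, and Clock, Cry1, Nr1d1 and Nr1d2 lie above them without overlap.

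Promoter sequence, 250 bases before to 50 after an annotated transcript start, was taken from RefSeq (GRCm38.p6) for the 9 genes found in that table, 13 promoters in all. Per2 was the gene not found, so its promoter was not searched. Both strands were searched for the E-box CACGTG, its variant CACGTT, the D-box TTATGTAA or TTACGTAA, the ROR element core TAGGTCA, which the REV-ERB repressors also bind, and the cAMP response element TGACGTCA. The 4 promoters below belong to clock genes and hold matches, in capitals. They were picked as those of the changed genes Per3, Cry1 and Nr1d1 and of Arntl, which the REV-ERB proteins repress. The promoters of Clock and Nr1d2, which also changed, held no match and are not shown. Positions count the first base of a match from the transcript start, which is 0.
Per3 (chr4:151044616-151044915, minus strand): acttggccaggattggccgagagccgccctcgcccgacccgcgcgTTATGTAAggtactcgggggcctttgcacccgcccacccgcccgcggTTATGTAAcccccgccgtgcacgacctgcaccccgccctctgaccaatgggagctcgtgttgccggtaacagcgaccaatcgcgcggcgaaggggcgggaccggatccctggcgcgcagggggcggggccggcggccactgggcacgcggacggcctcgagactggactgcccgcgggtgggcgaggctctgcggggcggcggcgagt
Cry1 (chr10:85185005-85185304, minus strand): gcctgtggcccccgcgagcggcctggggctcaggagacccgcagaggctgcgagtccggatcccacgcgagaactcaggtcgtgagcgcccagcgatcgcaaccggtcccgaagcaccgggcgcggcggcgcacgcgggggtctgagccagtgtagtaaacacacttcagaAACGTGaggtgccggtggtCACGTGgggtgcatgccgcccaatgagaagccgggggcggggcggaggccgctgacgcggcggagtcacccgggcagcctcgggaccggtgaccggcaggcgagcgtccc
Arntl (chr7:113207261-113207560, plus strand): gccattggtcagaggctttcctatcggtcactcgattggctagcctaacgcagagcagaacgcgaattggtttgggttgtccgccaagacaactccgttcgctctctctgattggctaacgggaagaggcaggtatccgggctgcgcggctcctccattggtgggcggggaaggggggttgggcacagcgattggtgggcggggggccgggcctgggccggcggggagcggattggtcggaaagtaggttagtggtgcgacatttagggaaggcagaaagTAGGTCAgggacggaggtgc
Nr1d1 (chr11:98775328-98775627, minus strand): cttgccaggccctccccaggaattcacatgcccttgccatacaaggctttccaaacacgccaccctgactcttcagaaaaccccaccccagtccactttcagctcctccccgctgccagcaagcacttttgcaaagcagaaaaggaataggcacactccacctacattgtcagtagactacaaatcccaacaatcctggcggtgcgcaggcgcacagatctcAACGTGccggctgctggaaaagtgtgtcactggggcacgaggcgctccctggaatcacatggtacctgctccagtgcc
The Per3 promoter holds the D-box TTATGTAA at -205 and again at -158. Of 32544 promoters of this length, 1.05% hold a D-box of either spelling. Per3 was the 1 searched clock gene with a match. The Cry1 promoter holds an E-box at -60, as 7.17% of promoters do, and the CACGTT variant, read as AACGTG on this strand, at -79. The variant occurs in 4.71% of promoters and also lies at -28 in Nr1d1. Per1, with an E-box at -166, and Cry2, with the variant at -166, were the remaining searched genes with a match to either. Arntl holds the ROR element core at 30, after 1 of its starts, against 2.61% of promoters. None of the 9 genes held TGACGTCA, which 1.80% of promoters hold. No matches in these promoters overlapped. A match is a description of the letters and does not show binding.

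Sirt1, the targeted gene, was lower in every knockout array. It read 8.02, 7.94 and 8.20 in knockout and 10.12, 10.13 and 10.23 in wild type. That is a log2 change of -2.11 with an SE of 0.08, or 4.31-fold less (limma, adjusted p = 3.98e-05). By exact permutation, two-sided, p was 0.1, the smallest that 3 against 3 arrays allow. The sources used here do not place the probe set relative to the deleted part, so this check of the labels rests on the level alone.

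Arrays of 1 genotype correlated at 0.997 to 0.998 across genes and arrays of different genotypes at 0.989 to 0.991, where genes are not independent replicates. Among all genes 12.5% were called higher and 17.5% lower, and marker lists are counted beside that. Of 10 markers of undifferentiated stem cells 6 were lower and 0 higher in the knockout (limma; 1, Dppa4, was higher at an unadjusted p under 0.05). Their mean log2 level lay between 11.21 and 11.25 in knockout and 11.51 and 11.53 in wild type. Of 10 primitive endoderm markers 8 were lower, with mean levels of 5.12 to 5.27 in knockout and 6.37 to 6.44 in wild type. Fibroblast markers gave 1 higher and 3 lower of 10 (4.29 to 4.44 in knockout, 4.52 to 4.58 in wild type), and neural markers 2 higher and 2 lower of 7 (5.15 to 5.19 in knockout, 5.15 to 5.22 in wild type). RMA values have no zero, so no marker reads 0. The part of these cell types in the clock gene differences was not tested, and in RNA of whole cultures fewer cells of a type and less RNA per cell cannot be told apart.

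Of the activator genes, Clock rose and Arntl did not pass. Clock, which encodes the DNA-binding partner of BMAL1, read 7.06, 7.32 and 7.28 in knockout and 6.89, 6.75 and 6.94 in wild type on its brightest probe set. Every knockout value lay above every wild-type value, by the narrowest margin at knockout replicate 1. The log2 change was 0.35 (SE 0.09; limma, Benjamini-Hochberg adjusted p = 0.0247), a 1.28-fold higher level. Another Clock probe set, 1418659_at, gave 0.57 (SE 0.09; limma, adjusted p = 0.00572 over all probe sets). The other probe sets of Clock gave 0.10 and 0.38 and did not pass (adjusted p = 0.366 and 0.0770), so all 4 had the same sign. The call on the brightest probe set was lost without knockout replicate 2 (adjusted p = 0.0784), knockout replicate 3 (0.0798), wild-type replicate 1 (0.0653) or wild-type replicate 2 (0.0734), with log2 changes of 0.30, 0.33, 0.37 and 0.30.

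Arntl read 7.26, 7.22 and 7.40 in knockout and 7.43, 7.49 and 7.56 in wild type. The groups did not overlap, with knockout replicate 3 just under wild-type replicate 1. The log2 change of -0.20 (95% interval -0.36 to -0.04) did not pass (limma, Benjamini-Hochberg adjusted p = 0.0684). Its dimmer probe set gave -0.21, with overlapping groups. Without knockout replicate 3 the change was -0.25 and passed (adjusted p = 0.0391). Npas2, which can stand in for CLOCK, had a change of -0.15 (adjusted p = 0.498), and Arntl2, the paralog of Arntl, 0.09 (0.457).

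Among the repressor genes Per3 fell, Cry1 rose and Per1, Per2 and Cry2 did not pass. Per3, a Period gene that is dispensable for the mouse clock itself, read 5.81, 5.90 and 5.62 in knockout and 6.76, 6.66 and 6.75 in wild type on probe set 1421087_at. The groups stood well apart, with a gap between them wider than the spread within either. This is a log2 change of -0.95 with an SE of 0.08, or 1.93-fold less (limma, Benjamini-Hochberg adjusted p = 0.000386). The fall rests on this 1 probe set. The other 5 Per3 probe sets gave -0.10 to 0.07 with overlapping groups, at adjusted p of 0.575 to 0.893, and they were dimmer. The brightest lay at percentile 67.9 of all probe sets by mean level and the others between percentiles 27.7 and 53.0. Averaged over its 6 probe sets, Per3 changed by -0.18 and did not pass (adjusted p = 0.0685).

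**Figure D2:**
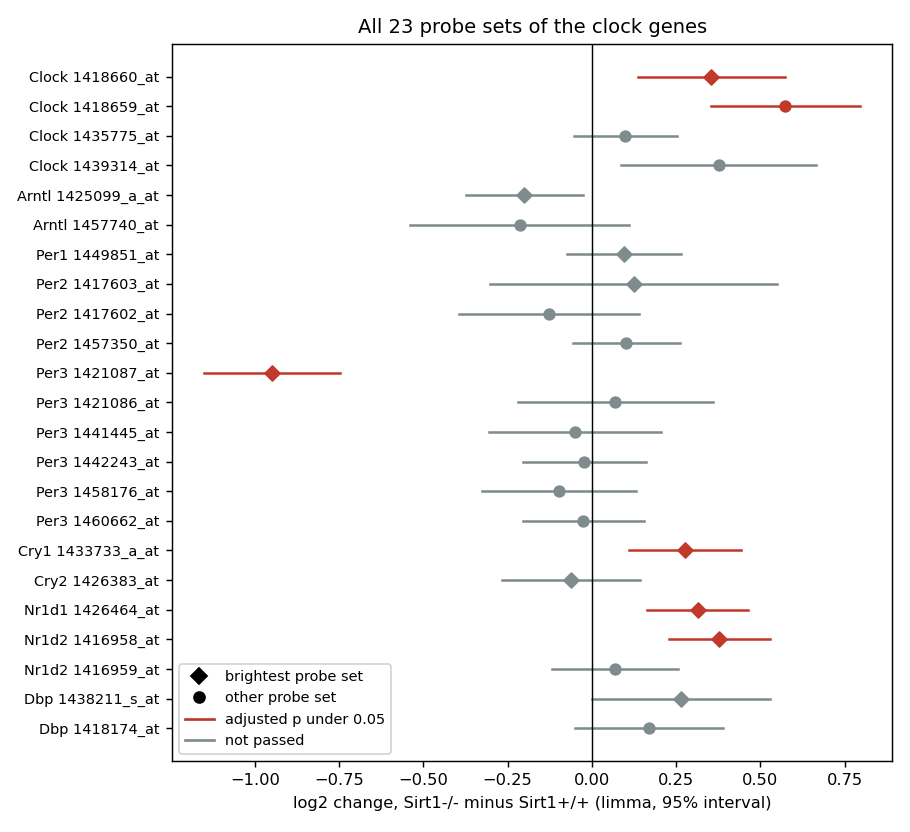
Log2 change, Sirt1-/- minus Sirt1+/+, with its 95% interval from limma (x axis) for all 23 probe sets of the clock genes (y axis), with the brightest of each gene as a diamond and those with adjusted p under 0.05 over all probe sets in red. The 6 in red are 2 for Clock and 1 each for Per3, Cry1, Nr1d1 and Nr1d2, and the other Per3 probe sets lie near 0.

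Cry1, a cryptochrome that holds CLOCK and BMAL1 inactive, read 9.16, 9.35 and 9.21 in knockout and 8.94, 8.94 and 9.02 in wild type. All knockout arrays were above all wild-type arrays. Its log2 change was 0.28 (SE 0.06), or 1.21-fold (limma, Benjamini-Hochberg adjusted p = 0.0189). The call was lost without wild-type replicate 1 (0.26, adjusted p = 0.0690) or wild-type replicate 2 (0.26, adjusted p = 0.0596). Cry2, its paralog, had 7.01, 7.15 and 7.25 in knockout and 7.19, 7.10 and 7.31 in wild type. Those groups overlapped, and the change of -0.06 had a 95% interval of -0.26 to 0.14 (limma, adjusted p = 0.650). Whether Cry1 and Cry2 differ in their change was not tested.

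Per1 and Per2 belong, with the Cry genes, to the negative limb of the mouse clock. Per1 read 6.76, 6.69 and 6.72 in knockout and 6.70, 6.51 and 6.67 in wild type, a change of 0.10 with a 95% interval of -0.06 to 0.25 (limma, Benjamini-Hochberg adjusted p = 0.342). Per2 was dim on all 3 of its probe sets. The brightest read 3.79, 4.09 and 3.73 in knockout and 3.86, 4.01 and 3.36 in wild type, at percentile 39.1 of all probe sets. Its change of 0.12 (95% interval -0.31 to 0.56; limma, adjusted p = 0.683) had no stable sign, since without wild-type replicate 3 it was -0.07. Its other probe sets changed by 0.10 (95% interval -0.06 to 0.26) and -0.13, and neither passed (adjusted p = 0.368 and 0.521).

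Both REV-ERB genes of the stabilising loop rose. Nr1d2, encoding REV-ERB beta, read 9.39, 9.52 and 9.38 in knockout and 9.07, 9.04 and 9.05 in wild type. The wild-type arrays lay within a narrow band and every knockout array was above it. The log2 change was 0.38 (SE 0.06), or 1.30-fold (limma, Benjamini-Hochberg adjusted p = 0.00295). A dimmer Nr1d2 probe set gave 0.07 (adjusted p = 0.627), and the mean of both changed by 0.22 and passed (0.0169). Nr1d1, encoding REV-ERB alpha, read 4.73, 4.82 and 4.87 in knockout and 4.55, 4.46 and 4.47 in wild type, again without overlap. Its change was 0.31 (SE 0.06), or 1.24-fold (limma, adjusted p = 0.00638), on 1 probe set at percentile 51.5 of all probe sets. Among the tested genes Nr1d1 was dim, at percentile 38.2 by mean level. Its rise was therefore not tested after removal of the dimmest 40%. Arntl, which both REV-ERB proteins repress, changed by -0.20 and did not pass, as described above. Whether the REV-ERB and Arntl changes are linked was not tested. Of the ROR activators that compete with REV-ERB proteins at the same elements, Rora changed by 0.13 (adjusted p = 0.166) and Rorb by 0.19 (0.126). The 9 probe sets of Rora disagreed, from -0.65 to 0.41, with 1 called in each direction. The corepressor gene Hdac3, through which REV-ERB proteins act, fell by 0.25 (adjusted p = 0.0124).

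Dbp, an output gene whose protein activates D-box genes, read 6.39, 6.65 and 6.74 in knockout and 6.21, 6.31 and 6.47 in wild type. The groups overlapped, since knockout replicate 1 lay below wild-type replicate 3. Its change of 0.27 (95% interval 0.00 to 0.53) did not pass (limma, Benjamini-Hochberg adjusted p = 0.126), and its dimmer probe set gave 0.17. Averaged over both, Dbp changed by 0.22 and passed (adjusted p = 0.0223). Without knockout replicate 1 the change was 0.37 and passed (adjusted p = 0.0371). Tef, a related D-box activator, rose: it read 8.20, 8.32 and 8.29 in knockout and 7.58, 7.36 and 7.53 in wild type. The gap between the groups was larger than the spread within either. Its log2 change was 0.78 (SE 0.07; limma, adjusted p = 0.000537), and 2 of its 3 probe sets passed. Hlf, the remaining activator of this family, changed by -0.06 and the D-box repressor Nfil3 by -0.16, and neither passed (adjusted p = 0.528 and 0.375). Per3, with its D-box matches, had the change of -0.95 given above, on 1 of its 6 probe sets. A link between that change and the D-box factors was not tested.

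Within a genotype the order of the arrays differed between clock genes. Wild-type replicate 2 was the lowest wild-type array for 6 of the 10 genes, and knockout replicate 1 the lowest knockout array for 5. Knockout replicate 2 was the highest of its group for 5 genes, and knockout replicate 3 for 4. In wild type, replicate 3 was the highest for 5 genes and replicate 1 for 4. The same shares over all genes were not counted. The median level of all genes was also lowest in wild-type replicate 2 (5.877, against 5.889 and 5.914) and in knockout replicate 1 (5.769, against 5.774 and 5.785). The median SD within a genotype was 0.10 log2 units for the clock genes and 0.10 for all genes.

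Other genes of the clock loops were taken as a list of 36 regulators, of which 31 were measured. In the knockout 3 rose, 6 fell and 22 did not pass, which is 29.0% passing against 30.0% of all genes, so the share was near the background. The genes that rose were Csnk2a2 by 0.86, Tef by 0.78 and Csnk1e by 0.54. Csnk1e encodes casein kinase 1 epsilon, which marks PER proteins for destruction. It read 10.87, 10.81 and 10.88 in knockout and 10.25, 10.31 and 10.40 in wild type (limma, Benjamini-Hochberg adjusted p = 0.000780), and 2 of its 3 probe sets passed. The related kinase gene Csnk1d had a change of 0.09 on its brightest probe set (adjusted p = 0.382). The mean of the 5 Csnk1d probe sets changed by 0.18 and passed (adjusted p = 0.0210). Csnk2a2, a catalytic subunit of casein kinase 2, a kinase of BMAL1 and PER2, read 11.44, 11.41 and 11.45 in knockout and 10.57, 10.57 and 10.58 in wild type (adjusted p = 7.30e-05). Its 7 probe sets ranged from -0.16 to 1.10, with 5 called higher. Csnk2a1, another casein kinase 2 gene of the list, changed by -0.01 on its brightest probe set and did not pass. Of its 6 probe sets, 4 were called higher, with changes up to 0.40.

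The regulators that fell did so by less. Gsk3a and Gsk3b, kinases that phosphorylate several clock proteins, fell by 0.37 and 0.26 (limma, Benjamini-Hochberg adjusted p = 0.00230 and 0.00445). Bhlhe40, an E-box repressor induced by CLOCK and BMAL1, fell by 0.29 (adjusted p = 0.00377), while its paralog Bhlhe41 changed by 0.19 and did not pass (0.327). Kmt2a, a histone methyltransferase recruited by CLOCK and BMAL1, fell by 0.25 (0.0170) and Nono, a PER partner, by 0.22 (0.0103). Kmt2a did not pass without knockout replicate 2 (-0.25, adjusted p = 0.0566) or knockout replicate 3 (-0.24, adjusted p = 0.0589), nor after repeated quantile normalisation (-0.23, adjusted p = 0.0552). Nono did not pass on its plain probe set (-0.16, adjusted p = 0.146). Averaged over its probe sets, Gsk3b changed by -0.06 and did not pass.

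Of 21 listed clock output genes 20 were measured, with 3 higher, 4 lower and 13 not passing in limma. The 35.0% passing stands against 30.0% of all genes, and the list shares genes with the regulators, among the called ones Tef and Bhlhe40. Nampt, which makes the NAD precursor and links the clock to sirtuin activity, rose by 0.24 on its brightest probe set (Benjamini-Hochberg adjusted p = 0.00753). Averaged over its 3 probe sets it changed by 0.01. Wee1, a kinase that restrains entry to mitosis, fell by 0.28 (adjusted p = 0.00704) and the transferrin receptor Tfrc by 0.37 (0.00392). The mean of the Tfrc probe sets was -0.25 and did not pass. Tspo rose by 0.20 and Cpt1a fell by 0.16 (adjusted p = 0.0325 and 0.0343). Leaving out any 1 array removed both calls, at adjusted p of 0.0509 to 0.111 for Tspo and 0.0605 to 0.0963 for Cpt1a.

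**Figure D3:**
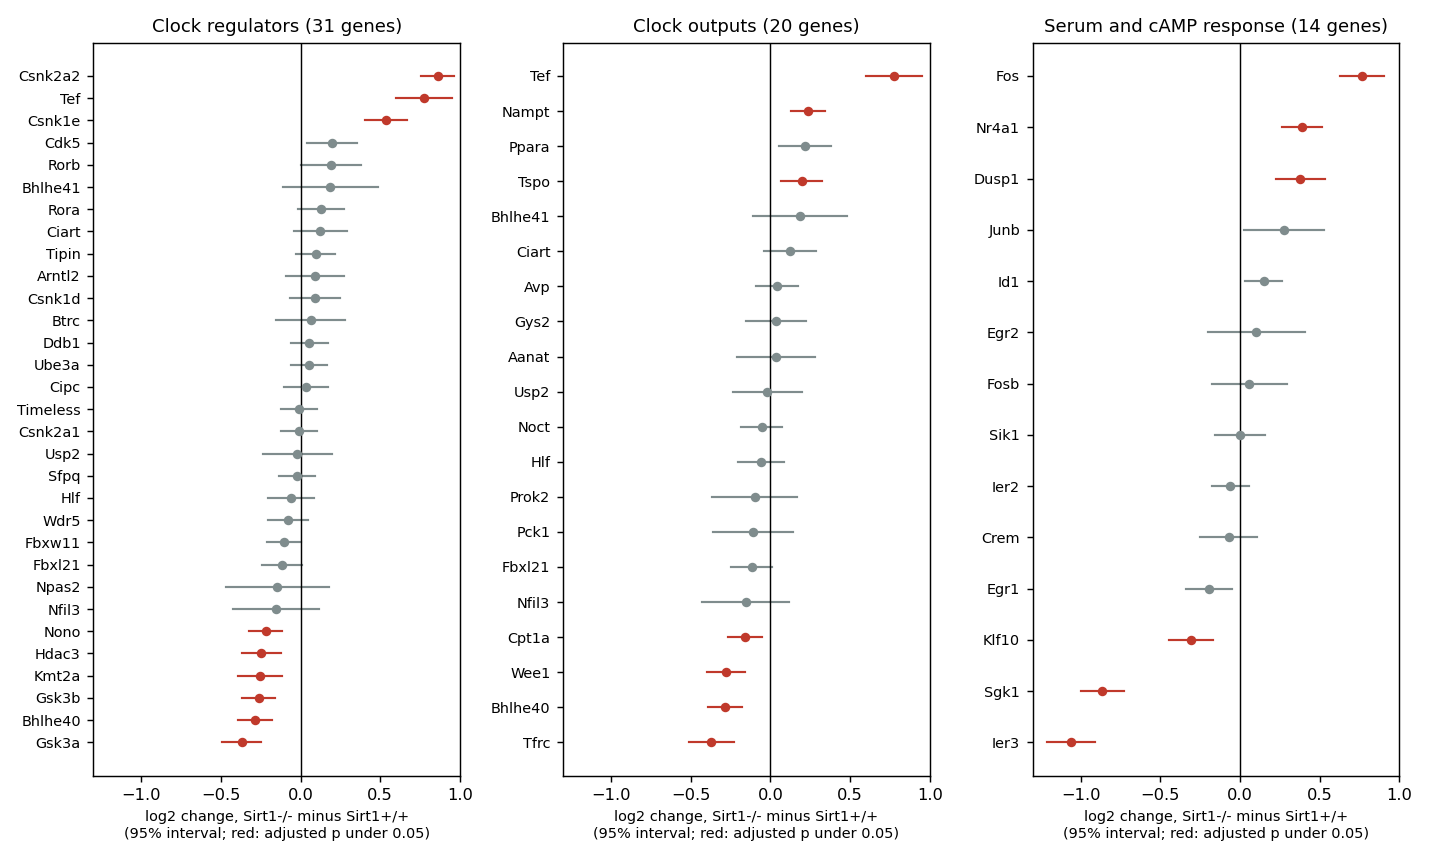
Log2 change, Sirt1-/- minus Sirt1+/+, with its 95% interval from limma (x axis) for the measured genes (y axis) of 3 lists, the clock regulators, the clock outputs and the serum and cAMP response genes, with those at adjusted p under 0.05 in red. Csnk2a2, Tef, Csnk1e and Fos lie farthest to the right, and Ier3 and Sgk1 farthest to the left.

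Per1 and Per2 are also induced directly by serum and cAMP, so 14 genes of that response were read beside them. Of these, 3 rose, 3 fell and 8 did not pass in limma, or 42.9% passing against 30.0% of all genes. Fos, an immediate early transcription factor, rose by 0.76, the nuclear receptor Nr4a1 by 0.39 and the phosphatase Dusp1 by 0.38 (Benjamini-Hochberg adjusted p = 0.000239, 0.00210 and 0.00565). Ier3, an early response gene, fell by 1.06, the kinase Sgk1 by 0.86 and Klf10 by 0.31 (adjusted p = 0.000126, 0.000148 and 0.00773). The list had a median change of 0.03, against -0.01 over all genes.

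The genes around the clock genes on their chromosomes were read on the same arrays, as the 10 nearest on each side among genes brighter than the median. For the 10 clock genes the median change of these neighbours lay between -0.20 and 0.10. Over all placed genes brighter than the median it was -0.02. The share called among those was not counted, and of all genes 12.5% were called higher and 17.5% lower. The lowest was around Nr1d2 on chromosome 14, where 10 neighbours fell and 4 rose, while Nr1d2 itself rose by 0.38. The neighbours of Per3 on chromosome 4 had a median of -0.01 and reached down to -0.88, above the -0.95 of Per3. Clock on chromosome 5 had neighbours with a median of -0.03. Tef and Csnk1e, both on chromosome 15, had neighbours with medians of -0.04 and -0.11 and changes above the range of their neighbours. Csnk2a2 differed, since its neighbours on chromosome 8 had a median of 0.30, with 13 of 20 called higher. The part of that shift in the Csnk2a2 change was not tested.

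**Figure D4:**
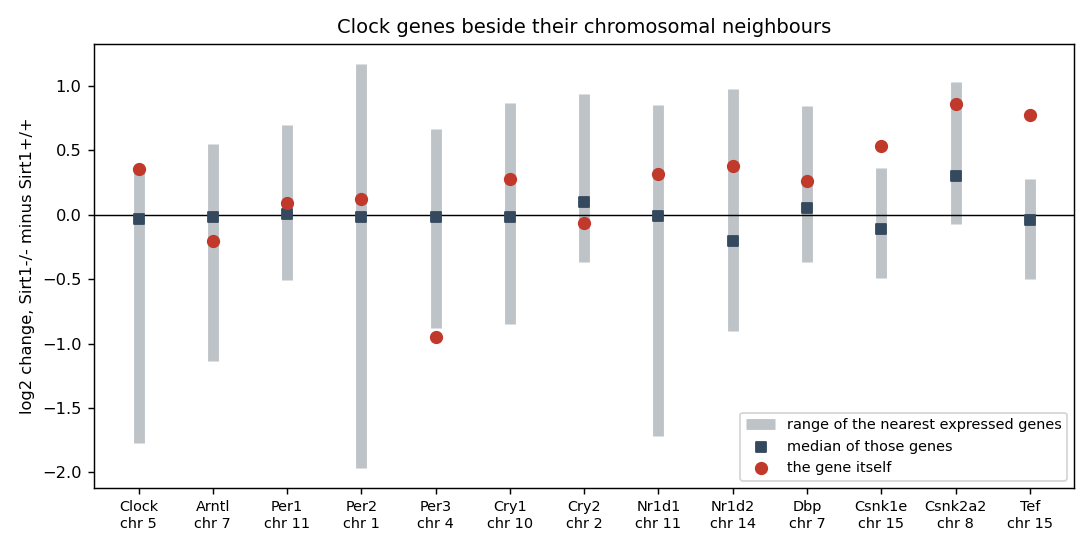
Log2 change, Sirt1-/- minus Sirt1+/+ (y axis), of each clock gene and of Csnk1e, Csnk2a2 and Tef (x axis, with the chromosome), beside the range and median of the 10 nearest genes on each side that were brighter than the median of all genes. Per3 lies below the range of its neighbours, Tef and Csnk1e above theirs, and Csnk2a2 within a raised stretch.

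The expressed genes whose profile over the 6 arrays was nearest to that of Per3 on its brightest probe set were Ncoa2, Sh3gl3 and Tesc. After centring each gene, their mean absolute differences from Per3 were 0.041, 0.0508 and 0.0532 log2 units. They lie on chromosomes 1, 7 and 5, and their log2 changes were -0.94, -0.99 and -0.94. Changes close to that of Per3 follow from the way these genes were chosen.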

How the data were processed

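The values deposited by the authors are log2 levels from RMA, and the submitters' processing notes name Partek 6.5. In RMA the background is corrected, arrays are set to 1 distribution by quantile normalisation, and probes are combined into a probe-set level. The log2 scale was taken from the range of the values. The sources used here do not give settings. Probe sets were named from the platform annotation in GEO. The 64 control probe sets, 932 with several symbols and 9160 with none were left out of the gene table. Each of 18193 genes was read on its brightest probe set by mean over the 6 arrays, and no dim ones were removed. Knockout minus wild type was tested with limma 3.58.1 in R 4.3.3 (lmFit, eBayes, two-sided, Benjamini-Hochberg over all genes, 4 residual degrees of freedom before moderation). Other probe sets of a gene come from the same test over 45037 probe sets. With 3 arrays per genotype, their number limits the precision. Chromosomes come from RefSeq (GRCm38.p6) by Entrez identifier. The procedure was tested on simulated data.

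The members and lists were chosen with earlier results of these data known. Named genes were all members with every probe set, Sirt1, up to 10 genes past the threshold from each list, Npas2, Bhlhe40, Bhlhe41, Rora, Csnk1d, Csnk1e and the 3 genes nearest in profile to the member that changed most. A further gene that the rule names is left out here. Other genes were named after their values were seen. Alternatives were repeated quantile normalisation, centring on medians, removal of the dimmest 40%, the mean of all probe sets, plain probe sets, an intensity trend with robust variance, a block for the replicate number, leaving out each array, adjustment over probe sets and a threshold of 0.01.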

Additional observations from a re-analysis of the deposited data

How the results depend on the processing

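Across 15 alternatives, Sirt1 stayed lower in the knockout and past the threshold, and Nr1d1 and Nr1d2 kept their calls wherever they were tested; Nr1d1 and Per2 were not tested after removal of the dimmest 40%, which kept 8 of the 10 clock genes. Per3 lost its call where its probe sets were averaged (-0.18), and then 0 clock genes were lower in limma, with 2 at an unadjusted p under 0.05. The number lower was 2 after removal of the dimmest 40% and with an intensity trend and robust variance, in each case with Arntl added. Averaging probe sets gave 5 regulators higher, 4 outputs called and 2 outputs lower, and the intensity trend gave 5 regulators higher. At an adjusted p under 0.01, 3 clock genes passed, 2 of them higher, 3 regulators were lower and 3 member probe sets passed against 6. Leaving out 1 array at a time gave 3 to 6 clock genes called, 2 to 5 higher and 1 to 2 lower, and 3 to 6 member probe sets called. The fewest were 3 clock genes without wild-type replicate 1 or wild-type replicate 2, and 3 probe sets without knockout replicate 2 or knockout replicate 3. The Per2 change ranged from -0.0681 without wild-type replicate 3 to 0.194 without knockout replicate 3. With the replicate number as a block, 5 clock genes and 4 member probe sets passed; Clock lost its call (adjusted p = 0.0537) and Dbp gained one (0.0346). The labels tie like-numbered arrays only by their number and do not say whether they were handled together. Deviations of like-numbered arrays correlated across genes at 0.05, -0.09 and 0.20. Of 506 recomputed values of single genes 458 kept direction and side of the threshold. Csnk1d passed where its probe sets were averaged. The cause of these shifts was not tested.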
